A study of Mus musculus with 10 samples.

Results

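The genes described here are the nuclear-encoded subunits of the mitochondrial respiratory chain and ATP synthase in regenerating mouse liver. They were chosen by symbol: every protein-coding gene whose name begins with Nduf, Uqcr, Cox4 to Cox8 or Atp5, together with Sdha, Sdhb, Sdhc and Sdhd. The rule found 94 gene identifiers among the 55487 in each of the 2 liver count tables. By prefix they fell into complex I (38 genes), complex I assembly factors named Ndufaf (8), complex II (4), complex III (8), complex IV (18) and complex V (18). The prefix rule places Ndufa4 with complex I, although its product is known as a subunit of complex IV, and it includes Atp5s, a coupling factor rather than a core subunit.

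Complexes I and II pass electrons from NADH and succinate to ubiquinone, complex III passes them on to cytochrome c, and complex IV passes them to oxygen. Complexes I, III and IV pump protons across the inner membrane, and complex V, the ATP synthase, uses the proton gradient to make ATP. All these machines except complex II also contain subunits encoded by mitochondrial DNA, so that their assembly draws on both genomes. Hepatocytes are rich in mitochondria and depend on this chain for gluconeogenesis, urea synthesis and fatty acid oxidation.

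The series asks how lipid supply and macrophages carrying the fatty acid receptor CD36 bear on liver regrowth after partial hepatectomy (PHx), the removal of most of the liver. In the diet experiment, 8-week-old C57BL/6J mice labelled male ate chow or a high-fat diet (HFD) for 7 days, underwent PHx, and gave liver 40 hours later, with 3 libraries per group. In the inhibitor experiment, C57BL/6J mice of the same age, also labelled male, received SSO at 40 mg/kg or solvent (vehicle) 1 day before PHx and gave liver 48 hours after surgery, with 4 libraries per group, where the labels name 8 mice per group. SSO is not spelled out in the labels; elsewhere the letters are used for sulfosuccinimidyl oleate, which blocks fatty acid uptake through CD36. All animals were of 1 strain, carried no transgene named in the labels, and had undergone PHx, so there was no unoperated liver to compare with. The values are whole-tissue read counts, given as CPM (counts scaled to library size with edgeR's TMM factors). In such bulk tissue, fewer cells of a type and less RNA per cell cannot be told apart.

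Library depth was 31.9 M to 39.9 M counts in the diet experiment and 25.2 M to 30.4 M counts in the inhibitor experiment. All 14 libraries expressed the hepatocyte gene Alb at high level, 30839 to 82776 CPM. The 6 diet libraries contained the Y-linked transcript Ddx3y at 55.0 to 76.3 CPM, whereas the 8 inhibitor libraries, labelled as from male mice, had 0 counts of Ddx3y and 698 to 1772 CPM of Xist. The sex given by the labels therefore did not match the inhibitor libraries, alike in both groups. The labels do not tie the columns of the inhibitor table to separate animals, and the spread behind its p-values is that between columns, which may be technical.

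The 4 vehicle libraries stood apart from each other. Relative to each member's own mean over the 8 libraries, the median member lay at -0.63 in vehicle 1, 0.31 in vehicle 2, -0.43 in vehicle 3 and 0.026 in vehicle 4 on a log2 scale, against 0.067 to 0.22 in the 4 SSO libraries. Vehicle 1 and 3 both lay below vehicle 2 and 4 for 74 of the 89 members tested. The share of all counts taken by mitochondrially encoded genes was 4.99% in vehicle 1, 22.5% in vehicle 2, 11.5% in vehicle 3 and 9.15% in vehicle 4, against 15.2% to 17.6% with SSO. Marker sums of other liver cells also differed among the vehicle libraries, and several of them were high where the members were low. The 9 Kupffer cell and macrophage markers summed to 650.1 and 631 CPM in vehicle 1 and 3, 141 and 173 CPM in vehicle 2 and 4, and 196 to 354 CPM with SSO. The 7 erythroid markers did not share this order, with 52.5, 197, 76.1 and 95.4 CPM in vehicle 1 to 4. The 5 cholangiocyte markers summed to 134 and 163 CPM in vehicle 1 and 3, 44.3 and 41.2 CPM in vehicle 2 and 4, and 33.1 to 43.2 CPM with SSO. Sinusoidal endothelial markers summed to 282, 135, 260 and 125 CPM in vehicle 1 to 4, and 143 to 264 CPM with SSO. Stellate cell markers gave 741, 287, 722 and 348 CPM, and 291 to 441 CPM with SSO. Neutrophil and lymphocyte markers gave 18.0, 6.76, 23.8 and 2.23 CPM in vehicle 1 to 4. Hepatocyte markers were lower in vehicle 1 and 3, at 85749, 99307, 72762.5 and 116251 CPM in vehicle 1 to 4. The part of cell composition in the inhibitor results was not tested.

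**Figure D1:**
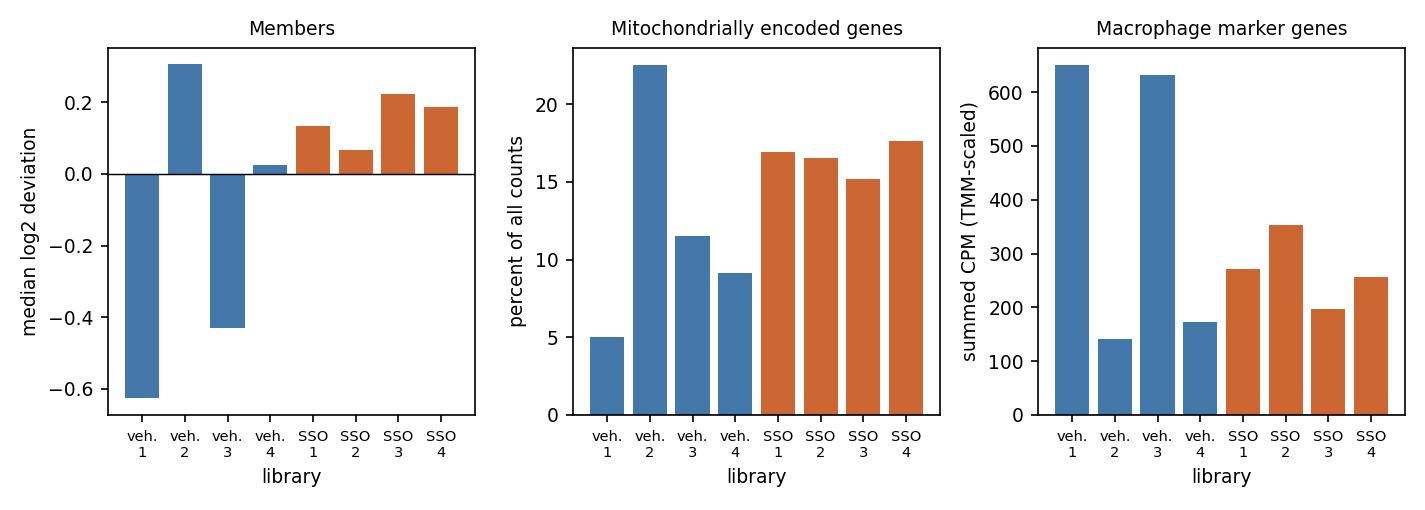
Bars for each of the 4 vehicle and 4 SSO libraries. The left panel gives the median over 89 members of log2(CPM + 0.5) minus the member's mean over the 8 libraries, the middle panel the percent of counts in mitochondrially encoded genes, and the right panel the summed CPM of 9 macrophage markers. Vehicle 1 and 3 had the lowest member levels (-0.63 and -0.43) and the highest marker sums (650.1 and 631 CPM).

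Of the 94 members, 87 had enough counts to be tested in the diet experiment and 89 in the inhibitor experiment. The genes that fell short were mainly the tissue-restricted forms of complex IV subunits: Cox4i2, Cox7b2, Cox8b and Cox8c in both tables, and Cox6a2 and Cox7a1, the heart and skeletal muscle forms, in the diet table. Cox7b2 and Cox8c had 0 counts in all 14 libraries. Cox4i2 had 0 to 14 counts per library in the diet table and 0 to 26 in the inhibitor table. A second identifier named Atp5o, a readthrough gene model overlapping Donson, had 0 counts throughout. With 0 counts, as many as 3 could be missed by counting error alone, or 0.0770 to 0.0922 CPM (diet) and 0.0817 to 0.136 CPM (inhibitor).

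Some members cannot be counted cleanly. For 14 of the 94, the principal transcript matched another annotated gene at 95% identity or more over at least 50% of its length, and 25 of the 27 copies were pseudogenes. The pseudogene Gm10039, 99.8% identical to 69.0% of the Atp5g1 transcript, held 7455 counts over the diet libraries beside 30298 for Atp5g1. Gm10221 held 6045 counts beside 12203 for Atp5l, and Gm10250 4671 beside 24513 for Atp5h. Atp5g2 is identical over its whole length to Gm10175 and Gm10231, which held 284 and 29 counts beside 20203. A further source of doubt is overlap between genes: 13 members share over 10% of their exon length with a neighbour, including Ndufaf2 (65.7% with an antisense gene), Ndufb6 (39.0%) and Ndufa13 (29.98%). The levels of these genes are uncertain.

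Levels were compared between genes per kilobase (kb) of merged exons. In chow liver the median member stood at 43.1 CPM per kb in complex I, 83.2 in complex II, 103 in complex III, 115 in complex IV and 56.3 in complex V, and at 8.23 among the Ndufaf assembly factors. The highest were Cox6a1, the liver form of a small complex IV subunit, at 383 ± 62.7 CPM per kb, and Atp5a1, the alpha subunit of the ATP synthase head, at 315 ± 7.17 (SD, n = 3 each). Atp5b, the catalytic beta subunit, followed at 252 ± 19.4 CPM per kb and Cox8a at 248 ± 58.2, and these last 2 did not differ beyond their spread. The highest members of the other groups were Uqcrfs1, the Rieske iron-sulfur protein, at 187 ± 15.7, Ndufa4 at 155 ± 14.7, Sdhd, a membrane anchor of complex II, at 145 and Ndufaf8 at 15.1 ± 2.86 CPM per kb.

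The order depended on the length used: Uqcrq, for example, has 1831 bases of merged exons and a principal transcript of 405 bases. Per kb of the principal transcript, a length added after seeing the data, complexes III, IV and V had similar medians in chow liver (181, 208 and 189 CPM per kb) above complexes I and II (70.5 and 130). On that scale Uqcrq, a small subunit of complex III, came first at 744 ± 123 CPM per kb (SD, n = 3), against 165 ± 27.2 per kb of merged exons. Atp5b followed at 557 ± 42.9, Atp5g3 at 537 ± 37.8 and Cox6a1 at 471 ± 77.1 CPM per kb (SD, n = 3 each). The Ndufaf assembly factors had the lowest median on both scales and in both experiments.

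The lowest tested members included isoforms known from other settings. Cox6b2, the testis form of a complex IV subunit, lay at 0.360 ± 0.259 CPM per kb of merged exons in chow liver, beside 189 ± 19.3 for Cox6b1, the general form (SD, n = 3). Ndufa4l2, a hypoxia-inducible relative of Ndufa4, lay at 1.77 ± 0.517 CPM per kb. The 3 subunit c genes Atp5g1, Atp5g2 and Atp5g3 encode the same mature protein, which forms the membrane ring of ATP synthase. Per kb of principal transcript, chow liver had 537 CPM of Atp5g3, 280.3 of Atp5g1 and 214 of Atp5g2.

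**Figure D2:**
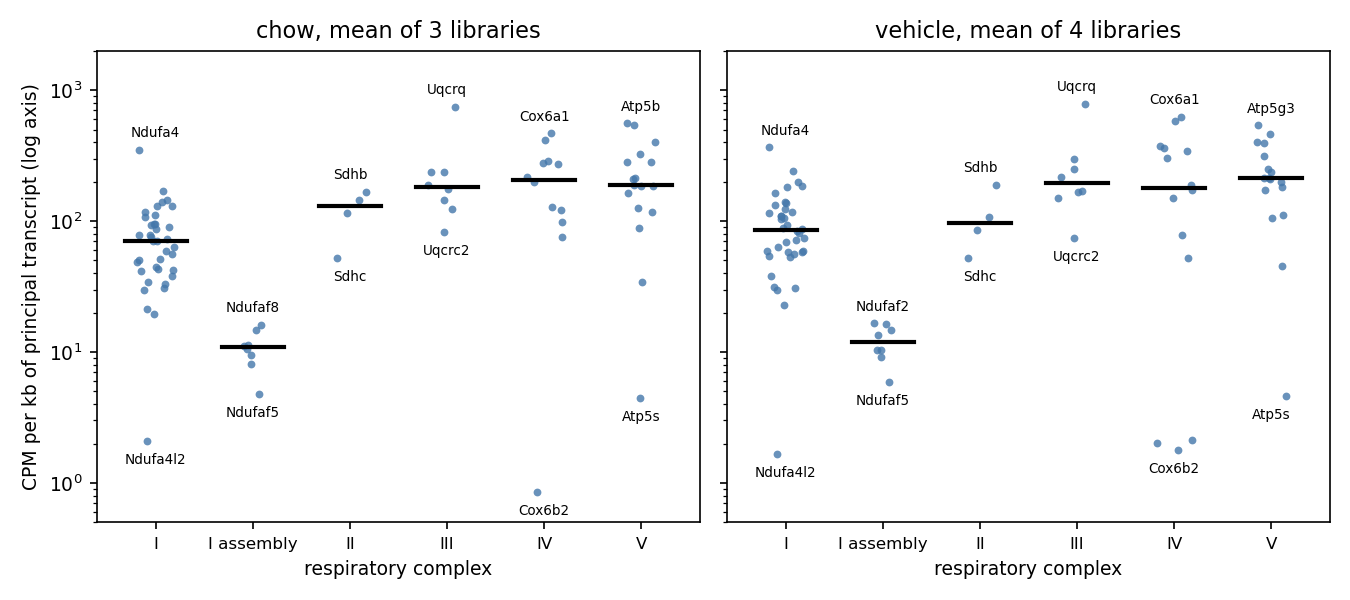
Mean level of each tested member in CPM per kb of principal transcript (log axis) in chow liver (3 libraries) and vehicle liver (4 libraries), by complex, with the median of each complex as a bar. The highest and lowest member of each complex are named. Uqcrq lies highest at 744 CPM per kb in chow, and Cox6b2 lowest at 0.858.

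Short motifs were counted in the promoters of the members, which the choice by symbol did not use, and no test of their frequency was made. RefSeq promoter windows (GRCm38.p6, 250 bases before to 50 after the start) were found for 76 members, giving 81 windows; the other 18 members, among them Cox4i1, Uqcrq, Ndufs1 and Sdhc, had no window in the table. The search covered both strands, and the motifs do not contain one another except for the NRF1 core within some matches of its full form. The core of the NRF1 motif, CGCATGCG, was present in 13.6% of member windows, 1.87% of all 32851 windows and 3.48% of the 13989 windows of genes tested here. The YY1-like letters AAGATGGC were present in 13.6% of member windows, 2.75% of all and 4.02% of tested genes' windows, and the ETS-like letters CCGGAAG in 22.2%, 8.86% and 16.0%, in the same order. The ESRRA-like letters TNAAGGTCA were present in 3 of the 81 member windows (3.70%), 1.28% of all and 0.822% of tested genes' windows. The median GC content was 58.3% in member windows, 52.7% in all and 60.0% in those of tested genes. The full NRF1 form was present in 24.7%, 4.60% and 9.03%, and the other ESRRA-like form, TGACCTTNG, which can overlap the first, in 2.47%, 1.34% and 1.12%. A match is a description of letters, not a site.

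The 3 stretches printed here, before the RefSeq start, were picked by gene name, and a check found no annotated exon in them. Cox7b, with the smallest p among the members in the diet experiment, has no match. The matches shown are the NRF1 core in Ndufaf4 and, on the opposite strand, the ESRRA-like letters in Atp5g3. The windows of Ndufaf4 and Atp5g3 also hold the full NRF1 form, which is not shown in capitals. Capitals mark the match, and each run ends at the last base before the start (GRCm38.p6; Cox7b chrX:106015450-106015699, plus strand; Ndufaf4 chr4:24897833-24898082, plus strand; Atp5g3 chr2:73911327-73911576, minus strand).
Cox7b: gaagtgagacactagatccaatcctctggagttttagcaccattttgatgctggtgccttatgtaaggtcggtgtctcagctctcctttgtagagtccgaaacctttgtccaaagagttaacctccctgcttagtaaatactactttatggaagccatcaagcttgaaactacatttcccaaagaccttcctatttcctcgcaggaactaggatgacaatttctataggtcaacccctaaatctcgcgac
Ndufaf4: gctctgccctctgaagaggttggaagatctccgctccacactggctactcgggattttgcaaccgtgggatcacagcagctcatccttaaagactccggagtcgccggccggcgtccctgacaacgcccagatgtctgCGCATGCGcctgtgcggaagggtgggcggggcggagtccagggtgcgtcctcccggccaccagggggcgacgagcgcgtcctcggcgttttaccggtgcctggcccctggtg
Atp5g3: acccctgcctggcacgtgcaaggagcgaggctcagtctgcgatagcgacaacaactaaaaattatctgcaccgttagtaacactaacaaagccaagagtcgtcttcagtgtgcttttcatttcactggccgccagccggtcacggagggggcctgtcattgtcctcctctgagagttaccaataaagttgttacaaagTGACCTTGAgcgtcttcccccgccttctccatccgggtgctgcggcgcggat
The match begins 112 bases before the start in Ndufaf4 and 52 bases before it in Atp5g3.

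After 7 days of HFD, nearly all members lay below chow, most by a small amount, and none passed the test. Of 87 members tested, 84 had a log2 fold change below 0, with a median of -0.25, against 52.7% of all 15589 genes tested, whose median was -0.019. None reached an adjusted p under 0.05 (edgeR quasi-likelihood test, Benjamini-Hochberg over all genes); over all genes 361, or 2.32%, did. At an unadjusted p under 0.05, 27 members lay lower and 1 higher, where 7.47% and 7.52% of all genes did. The 3 HFD libraries lay wholly below the 3 chow libraries for 41 members and wholly above for 1, where all genes gave 10.8% and 11.2%. DESeq2 called 2 members lower (Cox7b and Ndufa7) and 1 higher (Cox6b2), a smaller share than the 5.94% it called of all genes. Limma-voom called 0 members and 2.39% of all genes.

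In complex I, all 38 genes lay below chow, with a median log2 fold change of -0.26. For 17 of them the groups did not overlap, where 10.8% of all genes lay wholly lower. Ndufa7, an accessory subunit on chromosome 17 (33824572 to 33838317, plus strand, GRCm38), measured 66.4, 77.7 and 84.2 CPM in chow and 47.6, 55.5 and 55.5 CPM with HFD. Each HFD value lay below each chow value. Its log2 fold change was -0.53 ± 0.14, with an edgeR adjusted p of 0.0978. Ndufa6, a further accessory subunit, measured 112, 93.3 and 93.2 CPM in chow and 76.5, 71.1 and 75.5 CPM with HFD (log2 fold change -0.42 ± 0.13, edgeR adjusted p = 0.156). The subunits of the electron path and their close partners did not stand out. The log2 fold changes of Ndufs1, Ndufs3, Ndufs7, Ndufs8, Ndufv1 and Ndufv2 ran from -0.11 to -0.29.

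The assembly factors, which are needed to build complex I and are not part of it, had a median log2 fold change of -0.062. Ndufaf4 measured 49.1, 32.2 and 33.0 CPM in chow and 25.8, 27.5 and 28.4 CPM with HFD, without overlap (-0.49 ± 0.17, edgeR adjusted p = 0.232). Chow 1 was its highest library, and without it the log2 fold change was -0.26. Ndufaf2 was 1 of the 3 members above 0, at 7.60 ± 1.38 CPM in chow and 10.0 ± 1.39 CPM with HFD (SD, n = 3), and the groups overlapped (log2 fold change 0.40, and 0.26 without chow 2; edgeR adjusted p = 0.411). The other 6 assembly factors had log2 fold changes between -0.16 and -0.030.

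In complexes II and III, all 12 genes lay below chow without a call. Sdhb measured 235, 151 and 190.3 CPM in chow and 136, 159.8 and 135 CPM with HFD, with overlap (-0.42 ± 0.18, edgeR adjusted p = 0.320), and without chow 1 the log2 fold change was -0.24. Sdha, the flavoprotein that oxidises succinate, measured 333 ± 26.1 CPM in chow and 308 ± 11.4 CPM with HFD (SD, n = 3), a log2 fold change of -0.11. Sdhc and Sdhd, the membrane anchors, had log2 fold changes of -0.23 and -0.20 with no overlap between groups. In complex III the median was -0.32, and 6 of 8 genes did not overlap, where 10.8% of all genes lay wholly lower. Uqcrb, a small subunit near the ubiquinone site, measured 74.3, 54.4 and 68.6 CPM in chow and 46.1, 50.7 and 50.5 CPM with HFD (edgeR adjusted p = 0.205). Uqcrfs1, the Rieske iron-sulfur protein, measured 255 ± 21.3 CPM in chow and 220.1 ± 8.62 CPM with HFD (SD, n = 3).

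In complex IV, 11 of 12 tested genes lay below chow, with a median log2 fold change of -0.21. Cox7b showed the smallest p among the members in the diet experiment. It encodes a small structural subunit of complex IV on chromosome X (106015700 to 106022450, plus strand, GRCm38). Its level was 119, 106 and 142 CPM in the chow libraries and 80.0, 77.4 and 80.4 CPM in the HFD libraries. The groups did not overlap, and the HFD libraries lay close together. The log2 fold change was -0.63 ± 0.14 (SE), with an adjusted p of 0.0587 by edgeR and 0.00519 by DESeq2. Cox7c, another small subunit of complex IV, lay at 147 ± 20.9 CPM in chow and 106 ± 5.77 with HFD (SD, n = 3), with an edgeR adjusted p of 0.158.

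The member of complex IV in the other direction was Cox6b2 (chromosome 7, 4751792 to 4753094, minus strand, GRCm38). It had 4, 16 and 22 counts in the chow libraries and 132, 42 and 88 counts in the HFD libraries, which is 0.103, 0.419 and 0.676 CPM against 3.64, 1.27 and 2.60 CPM. The HFD libraries were all higher, with HFD 1 well above HFD 2. The log2 fold change was 2.66 ± 0.64, with an edgeR adjusted p of 0.0773 and a DESeq2 adjusted p of 0.000761. Cox6b1, the form that makes up nearly all of the Cox6b transcripts, lay at 134 ± 13.6 CPM in chow and 107 ± 5.64 CPM with HFD (SD, n = 3). The log2 ratio of Cox6b2 to Cox6b1 was -8.68 in chow and -5.54 with HFD (two-sided exact permutation p = 0.1, the smallest possible; 0.25 after adjustment over 10 ratios).

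In complex V, 16 of 17 tested genes lay below chow, with a median log2 fold change of -0.33. Atp5h, a subunit of the peripheral stalk, measured 129, 122 and 145 CPM in chow and 88.7, 95.3 and 110.2 CPM with HFD (-0.43 ± 0.14, edgeR adjusted p = 0.184). The catalytic-head genes Atp5a1 and Atp5b, the most abundant members by CPM, lay at 987 ± 22.5 and 1068 ± 82.2 CPM in chow and at 818 ± 18.7 and 899 ± 3.53 CPM with HFD (SD, n = 3 each). For both, the groups did not overlap, yet the edgeR adjusted p was 0.449 and 0.509.

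Of the 3 subunit c genes, Atp5g2 lay apart from the other two, though no ratio passed the test. Atp5g1 measured 171, 131 and 199 CPM in chow and 117, 129 and 107 CPM with HFD, and Atp5g3 399.8, 352 and 399 CPM against 285, 299 and 331 CPM. Atp5g2 measured 93.8, 86.9 and 102 CPM in chow and 97.8, 94.0 and 95.7 CPM with HFD, a log2 fold change of 0.022 ± 0.12. The log2 ratio of Atp5g1 to Atp5g2 was 0.81 in chow and 0.29 with HFD, and that of Atp5g3 to Atp5g2 was 2.02 and 1.67. Neither ratio overlapped between the groups (two-sided exact permutation p = 0.1 for each, the smallest that 3 against 3 libraries allow; 0.25 after Benjamini-Hochberg adjustment over 10 ratios). The log2 ratio of Atp5g1 to Atp5g3 was -1.22 in chow and -1.37 with HFD, with overlap (two-sided exact permutation p = 0.5).

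**Figure D3:**
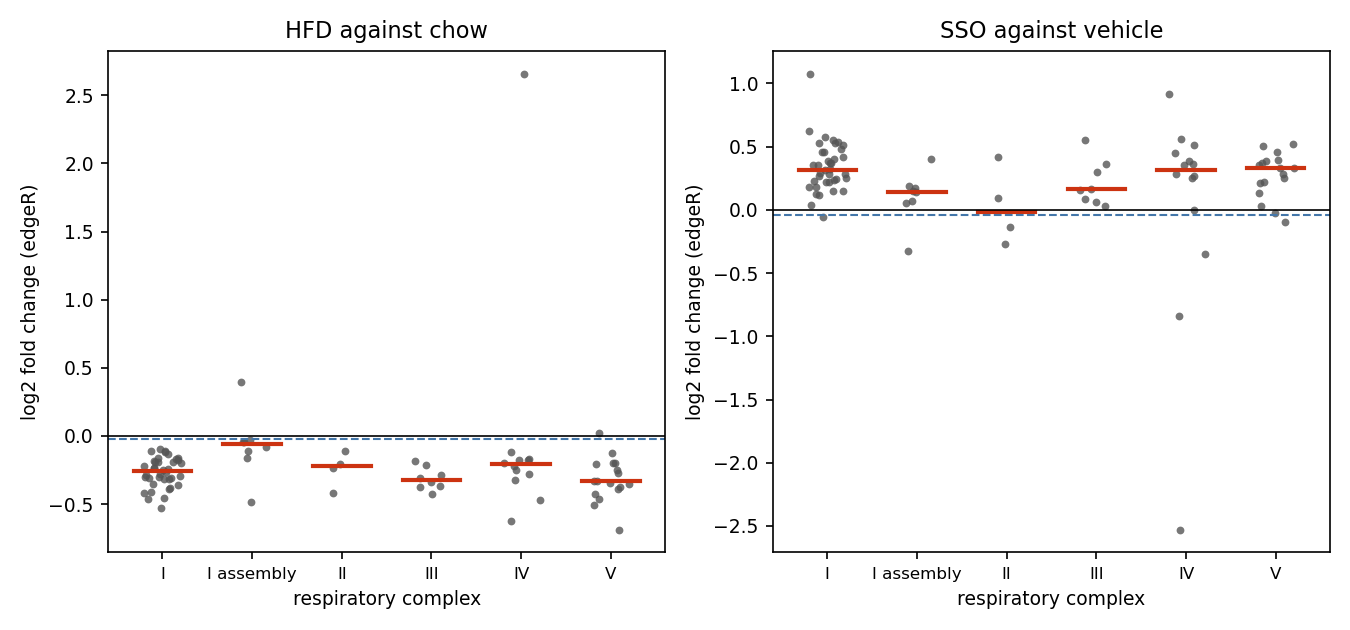
Log2 fold change of each tested member by complex, HFD against chow (87 members) and SSO against vehicle (89 members). Red bars are the medians of each complex, and the dashed line is the median of all genes tested (-0.019 and -0.040). With HFD 84 of 87 points lie below 0, and Cox6b2 stands alone at 2.66. With SSO 79 of 89 lie above 0.

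Marker sums of other cells differed between the diets or among the chow libraries. The 5 cholangiocyte markers summed to 56.6 to 88.0 CPM in chow and 103 to 112 CPM with HFD. Most of these genes did not follow their sum: 2 lay above chow and 3 below, and the median of the 5 was -0.31 (log2). The 7 erythroid markers summed to 297 to 540.1 CPM in chow and 182 to 291 CPM with HFD. The 9 macrophage markers overlapped, at 109 to 219 CPM in chow and 159 to 282 CPM with HFD. The part of these cell types in the result was not tested.

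The chow libraries themselves differed. Chow 3 was the highest chow library for 52 of 87 members and chow 1 for 33, and chow 2 was the lowest for 59. The median member deviated by 0.15, -0.010 and 0.23 in chow 1 to 3 and by -0.14, -0.14 and -0.096 in HFD 1 to 3. The median SD of a member on the log2 scale was 0.20 in chow and 0.087 with HFD. Without chow 3 the median log2 fold change of the members was -0.19, and without chow 2 it was -0.32. Scaling by library size alone moved the median of all genes from -0.019 to 0.13 and that of the members to -0.094, with 71 members below 0. The difference between members and all genes was -0.23 under either scaling. A change of scaling shifts all genes nearly alike, so this difference could hardly have changed.

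A second large gene group also lay lower. The cytosolic ribosomal protein genes lay below chow in 78 of 80 cases, with a median log2 fold change of -0.22, and none was called. At an unadjusted edgeR p under 0.05, 15 lay lower, where 7.47% of all genes did. The mitochondrial ribosomal protein genes lay below in 49 of 77 cases, with a median of -0.035, close to that of all genes. Among all other tested genes, the median log2 fold change was -0.22 for 85 genes with a principal transcript of up to 500 bases, -0.11 for 740 genes of 500 to 1000 bases and 0.035 for 2275 genes over 5000 bases. The 43 members with a principal transcript of 500 to 1000 bases had a median of -0.28. Transcript length moved with the fold change, and its part in the result was not tested.

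In the inhibitor experiment most members lay above vehicle with SSO, again without a call. Of 89 members tested, 79 had a log2 fold change above 0, with a median of 0.28, against 47.0% of all 15788 genes tested, whose median was -0.040. None passed the edgeR test, where 71 of all genes, or 0.45%, did. DESeq2 and limma-voom also called 0 members, where they called 7.71% and 0.431% of all genes. At an unadjusted p under 0.05, 14 members lay higher and 0 lower, beside 7.96% and 12.5% of all genes. The groups did not overlap for 4 members, all higher with SSO (Ndufa8, Ndufa11, Ndufaf8 and Atp5s), where 6.14% of all genes were wholly higher and 5.62% wholly lower. As a share, 4 of 89 lies near that background. Scaling by library size alone moved the median of all genes from -0.040 to -0.20 and left 69 members above 0.

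The values depended on which vehicle libraries entered. For 53 of the 89 members all 4 SSO libraries lay inside the range of the vehicle libraries. The median SD of a member was 0.46 on the log2 scale in the vehicle group and 0.14 in the SSO group. Without vehicle 1 and 3, 36 of 90 members lay above 0 and the median was -0.036. These libraries had the lowest member levels as well as the high macrophage marker sums. Leaving them out therefore had to lower the fold changes of most members, whatever the markers. Vehicle 2 was the highest vehicle library for 63 of 89 members, so leaving it out had to raise them. Without vehicle 2 alone, the library with 22.5% mitochondrially encoded counts, the median was 0.48 and edgeR called 22 members, all higher, among 2646 called of all genes (16.2%). Those 22 included Ndufa8, Ndufa11, Ndufs8, Uqcr11, Uqcrq, Cox5b, Cox7a2 and Cox7b.

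**Figure D4:**
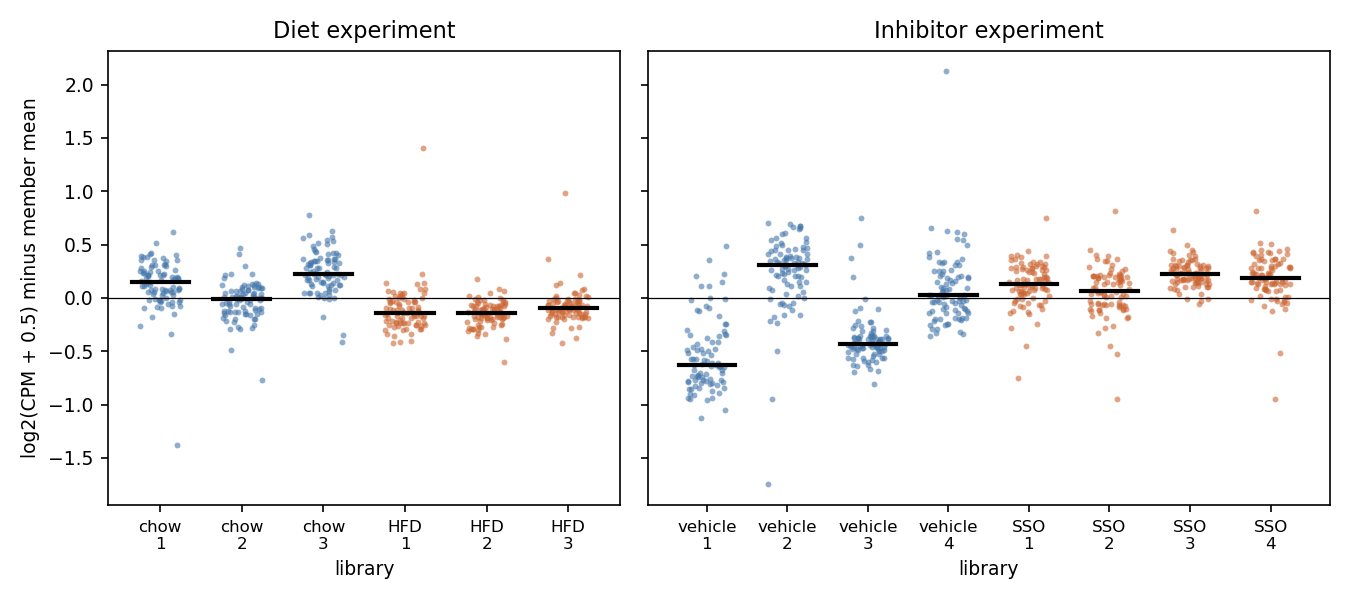
Each point is 1 tested member in 1 library: log2(CPM + 0.5) minus the member's mean over the libraries of that experiment (6 diet, 8 inhibitor), and black bars are medians. The chow medians run from -0.010 to 0.23 and the HFD medians from -0.14 to -0.096. The vehicle medians run from -0.63 to 0.31, around the SSO medians of 0.067 to 0.22.

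Ndufa8, an accessory subunit of complex I (chromosome 2, 36036326 to 36049406, minus strand, GRCm38), had the smallest p among the members. It measured 74.8, 124, 83.0 and 91.4 CPM in the vehicle libraries and 146, 127, 138 and 136 CPM with SSO. All SSO values lay above all vehicle values, and vehicle 2 was the closest. The log2 fold change was 0.55 ± 0.18, with an edgeR adjusted p of 0.149. Ndufa11, a membrane subunit, measured 33.3, 60.4, 47.0 and 51.7 CPM with vehicle and 69.0, 72.8, 66.3 and 69.7 CPM with SSO, also without overlap (0.53 ± 0.18, edgeR adjusted p = 0.152). In complex I as a whole, 37 of 38 genes lay above 0, with a median of 0.32. Among its catalytic and redox subunits Ndufs7 lay highest (0.48 ± 0.19, edgeR adjusted p = 0.195).

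In complex II, 2 of the 4 genes lay above 0 and 2 below. Sdha measured 319, 194, 141 and 332 CPM with vehicle and 205, 217, 264 and 212 CPM with SSO. Vehicle 1 and 4 were the high libraries here. Sdhd measured 151, 104, 87.7 and 187 CPM with vehicle and 97.0, 107, 121 and 116 CPM with SSO, with the same high libraries. Sdhb, in contrast, was highest in vehicle 2 and lowest in vehicle 1, with 142, 291, 157 and 274 CPM with vehicle and 299, 278, 282 and 295 CPM with SSO. The difference between complex II and the others was not tested.

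In complexes III and IV the lowest p belonged to Uqcr11 and Cox5b. Uqcr11, a small subunit of complex III, measured 91.0, 192, 104 and 144 CPM with vehicle and 191, 206, 207 and 172 CPM with SSO (0.55 ± 0.24, edgeR adjusted p = 0.225). Cox5b, a subunit that binds zinc, measured 102, 214, 128 and 153 CPM with vehicle and 221, 205, 213 and 242 CPM with SSO (0.56 ± 0.23, edgeR adjusted p = 0.207). In both genes vehicle 2 reached the SSO level and the other vehicle libraries lay below it. Cox7a2l, a factor that joins complexes III and IV into supercomplexes, lay on the other side, at 55.8 ± 13.4 CPM with vehicle and 43.7 ± 4.56 CPM with SSO (SD, n = 4; edgeR adjusted p = 0.293). Its log2 fold change was -0.35, and -0.16 without vehicle 4.

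In complex V, 15 of 17 tested genes lay above 0, with a median of 0.33. Atp5s measured 5.09, 8.31, 7.54 and 6.31 CPM with vehicle and 10.8, 9.57, 9.16 and 9.55 CPM with SSO, without overlap (0.52 ± 0.22, edgeR adjusted p = 0.213). The abundant Atp5a1 and Atp5b did not share this pattern. Atp5b measured 999.6, 839, 558 and 1175 CPM with vehicle and 789, 839.7, 974 and 916 CPM with SSO, a log2 fold change of -0.022 ± 0.25. Vehicle 4 was its highest and vehicle 3 its lowest library. The log2 ratio of Atp5g1 to Atp5g3 was -0.72 with vehicle and -0.37 with SSO, without overlap (two-sided exact permutation p = 0.0286, the smallest that 4 against 4 allow; 0.25 after adjustment over 10 ratios).

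The isoforms of other tissues lay at low levels in both groups. Cox6a2, the muscle form, measured 0.628, 0, 1.12 and 3.70 CPM with vehicle and 0.0743, 0, 0.856 and 0 CPM with SSO (edgeR adjusted p = 0.353). Its log2 fold change was -2.53, and ran from -5.57 without SSO 3 to -1.32 without vehicle 4. Cox7a1, also a muscle form, measured 0.834 ± 0.566 CPM with vehicle and 1.59 ± 0.440 CPM with SSO (SD, n = 4). The 10 striated muscle markers summed to 0.528 to 2.27 CPM with vehicle and 1.45 to 3.31 CPM with SSO, and 4 of them had 0 counts in all 8 libraries. Cox6b2, which lay higher with HFD, measured 0.826 ± 0.432 CPM with vehicle and 0.459 ± 0.242 CPM with SSO.

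**Figure D5:**
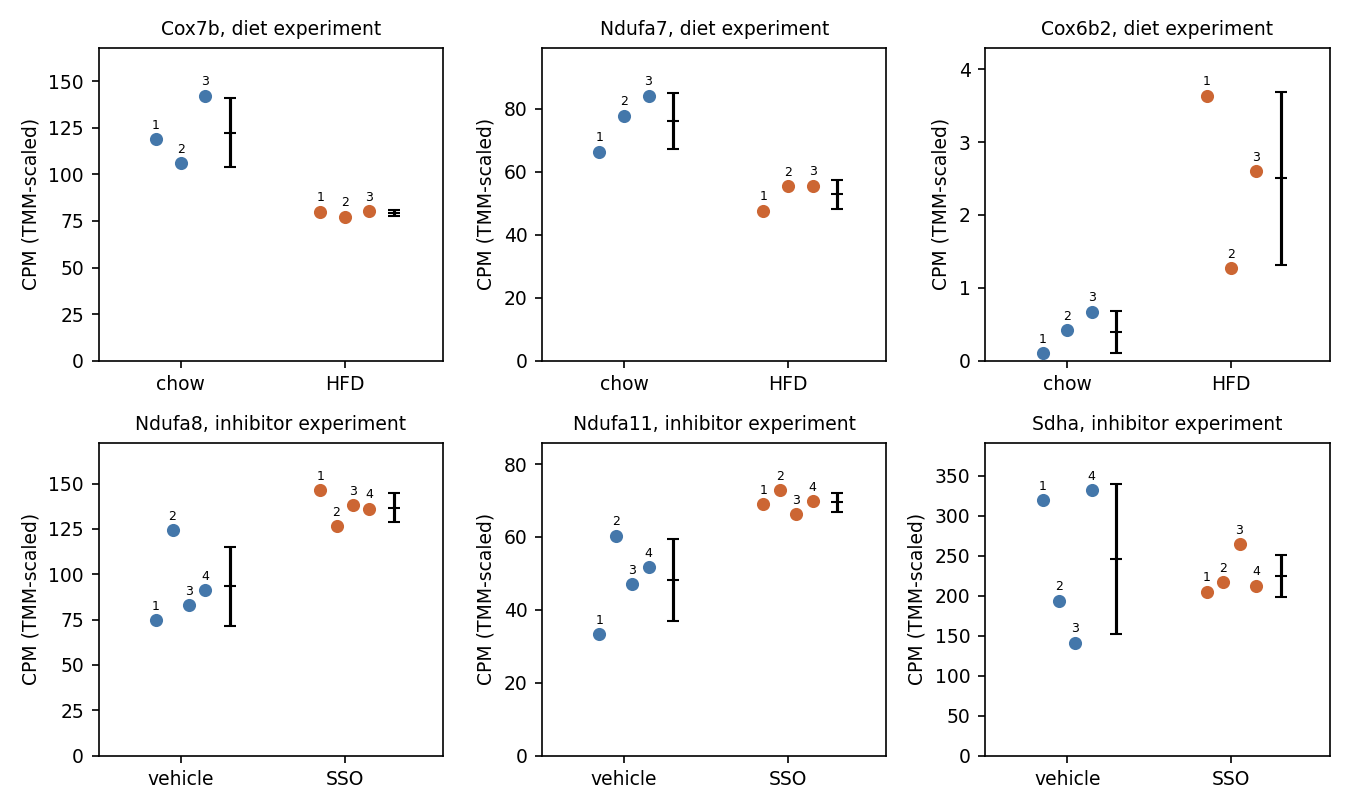
CPM of 6 members by library (numbered points) with the mean and SD beside each group. Cox7b, Ndufa7 and Cox6b2 are shown for the diet experiment and Ndufa8, Ndufa11 and Sdha for the inhibitor experiment. The groups do not overlap in the first 5 panels. For Sdha, vehicle 1 and 4 (319 and 332 CPM) lie above and vehicle 2 and 3 (194 and 141 CPM) below the SSO range of 205 to 264 CPM.

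The 2 experiments share no libraries, and their fold changes can be set side by side. Of 87 members tested in both, 76 lay lower with HFD and higher with SSO, 8 lay lower in both, 2 higher in both and 1 higher with HFD and lower with SSO. Among the 14905 genes tested in both, 28.9% lay lower with HFD and higher with SSO, against 87.4% of the members. Across the members, Pearson's r between the 2 log2 fold changes was -0.52 and Spearman's rho was -0.19. Over all genes r was -0.31 and rho was -0.27, so by rank the members were not more opposed than all genes. Cox6b2, with few counts, lay far from the other members with HFD (2.66, and -0.84 with SSO). Pearson's r is sensitive to such a point, and members are not independent of each other. Genes with short transcripts leaned as the members did, lower with HFD and higher with SSO: among other genes with a principal transcript of up to 500 bases, the median was -0.22 with HFD and 0.14 with SSO.

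Other mitochondrial lists gave few calls. Among the 13 mitochondrially encoded subunits, 11 lay lower with HFD and 12 higher with SSO, and 0 were called in either. Their summed level was 77140 to 98459 CPM in chow and 60383 to 80295 CPM with HFD, and it ran from 40599 CPM in vehicle 1 to 264147 CPM in vehicle 2, around the 157527 to 187928 CPM with SSO. The 14 genes of the TCA cycle all lay lower with HFD, with a median log2 fold change of -0.19 and 0 calls, and with SSO 8 lay higher. Lower with HFD were also 19 of 22 mitochondrial protein import genes (median -0.21) and 7 of 8 genes of mitochondrial ROS defence (-0.38). The same held for 10 of 11 hypoxia response genes (-0.40). With SSO, 10 of 22, 6 of 8 and 5 of 12 of these lay higher, and 0 were called in either experiment. Among genes near the chain, 2 passed the test, both lower with HFD: Coq10b, a ubiquinone-binding protein (26.1 ± 3.90 CPM in chow and 14.1 ± 1.86 with HFD, SD, n = 3; log2 fold change -0.89, edgeR adjusted p = 0.0277), and Coa6, an assembly factor that handles copper for complex IV (26.8 ± 3.44 and 15.6 ± 0.925 CPM; -0.78, edgeR adjusted p = 0.0263). Among 29 tested assembly factors of complexes II to V, Coa6 was the only call. Of 17 regulators of mitochondrial biogenesis, among them Ppargc1a, Nrf1, Gabpa and Tfam, 9 lay higher and 8 lower with HFD, with a median of 0.011, and 10 lay higher with SSO; 0 were called. Among the cell type lists only Tat, a hepatocyte enzyme of tyrosine breakdown, was called, lower with HFD (-1.46, edgeR adjusted p = 0.02996).

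Members with and without a promoter match are given side by side. With and without CGCATGCG, the median log2 fold change was -0.21 (11 members) and -0.25 (62 members) with HFD, and 0.37 (11 members) and 0.29 (63 members) with SSO. For CCGGAAG the medians were -0.29 and -0.24 with HFD and 0.38 and 0.27 with SSO. Without the 24 members that have a near copy or an overlapping neighbour, 64 of 65 members lay below 0 with HFD (median -0.24) and 58 of 66 above 0 with SSO (median 0.27).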

How the data were processed

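Liver RNA was selected on poly(A) tails, per the labels' protocols. Tools listed, with no role, in the submitters' processing notes are HISAT2 2.2.1, Trim Galore 0.6.1, DESeq2 and featureCounts 2.0.2, with the build GRCm38 (mm10). The deposited tables hold raw whole-number read counts per gene, per the file headers and values. For strand use, annotation release and multi-mapping reads, the setting is not given in the sources used here. Columns named C were taken as chow or vehicle from the table they stand in, and 0 value columns were left unmapped. Of 55487 identifiers, 55227 matched GENCODE symbols.

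Each table was fitted separately with edgeR 4.0.16 in R 4.3.3 (filterByExpr, TMM, robust quasi-likelihood, Benjamini-Hochberg over all genes tested, calls at an adjusted p under 0.05). DESeq2 1.42.0, limma 3.58.1 (voom), other scalings, no filter, a replicate block and leaving out libraries were alternatives, and the fit was tested on simulated data. The column numbers did not pair libraries: correlations of same-numbered columns ran from -0.11 to 0.019 (diet) and -0.075 to 0.031 (inhibitor). Copies were found with BLAST+ 2.17.0. No pair of replicates agreed within sampling noise.

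The members, gene lists and tests were chosen with earlier results of these data known. Named were, per group, the members with the smallest p, the highest and lowest per kb, isoform pairs, catalytic subunits, and called genes of the lists. Values of 1 member are not reported here. The single-cell and sorted-macrophage libraries were not used here.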

Additional observations from a re-analysis of the deposited data

Results flagged for a closer look

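Of 98 groups of 4 libraries examined (named members and summed levels, vehicle or SSO), 5 had 1 library far from the others, where chance gives about 1 in 20; all 5 were SSO groups. SSO 2 was lowest for Sdhc at 148.3 CPM (others 182.8 to 188.8) and for Ndufv2, a redox subunit of complex I, at 102.1 CPM (others 141.6 to 147.3). SSO 4 was highest for Cox6b1 at 278.5 CPM (others 230.5 to 232.3) and for Cox7a2 at 179.6 CPM (others 138.7 to 143.6). SSO 3 was highest for the muscle form Cox6a2 at 0.8557 CPM (others 0 to 0.0743).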

How the results depend on the processing

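With HFD, the number of members called was 3 with DESeq2 and 2 with no filter on low counts (Cox6b2 and Cox7b), and it ran from 0 to 1 over fits that each left out 1 library (Ndufa7 without chow 1). The number below 0 ran from 80 to 84 and the median from -0.32 to -0.19 in those fits; with library size alone the median was -0.094. With SSO, calls ran from 0 to 22 when 1 library was left out (22 without vehicle 2), the number above 0 from 71 to 84 and the median from 0.15 to 0.48. Without vehicle 1 and 3, 36 lay above 0 and the median was -0.036. Over all genes, DESeq2 called 926 (HFD) and 1218 (SSO), against 361 and 71 by edgeR, and no filter gave 672 and 205; leaving out 1 library gave 86 to 681 and 0 to 2646.

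With library size alone, signs turned with HFD for Ndufb2 (0.036), Ndufaf8 (0.084), Cox8a (0.045), Ndufs1 (0.038) and Sdha (0.045), and with SSO for Ndufaf1 (-0.0074), Ndufaf2 (-0.068), Sdhc (-0.031), Uqcrc2 (-0.065), Atp5g3 (-0.080), Ndufs1 (-0.0043) and Ndufv1 (-0.096). Without vehicle 1 and 3 they turned for Ndufa2 (-0.12), Ndufaf1 (-0.36), Ndufaf2 (-0.20), Sdhc (-0.19), Uqcrq (-0.060), Uqcrc2 (-0.20), Cox4i1 (-0.051), Cox7a2 (-0.11), Cox8a (-0.076), Ndufa4 (-0.13), Atp5g3 (-0.28), Ndufs1 (-0.12), Ndufs3 (-0.057), Ndufv1 (-0.17), Ndufv2 (-0.16) and Uqcrfs1 (-0.16). Atp5b with SSO was 0.017 with limma-voom and 0.022 with the replicate block. Leaving out 1 library spanned 0 with HFD for Atp5g2 (-0.034 to 0.082), Cox8a (-0.24 to 0.083), Ndufaf8 (-0.19 to 0.078) and Ndufb2 (-0.27 to 0.043). It did so with SSO for Atp5a1 (-0.25 to 0.14), Atp5b (-0.19 to 0.15), Atp5g3 (-0.089 to 0.17), Ndufaf1 (-0.12 to 0.32), Ndufaf2 (-0.050 to 0.17), Ndufv1 (-0.094 to 0.23), Sdha (-0.32 to 0.060), Sdhc (-0.0053 to 0.27) and Uqcrc2 (-0.11 to 0.29). The causes were not tested. The replicate block called 0 members in either experiment, and 206 and 47 of all genes.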
